A study of Danio rerio with 12 samples.

Results

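The transcripts described here are jun (ENSDARG00000043531), junba (ENSDARG00000074378), junbb (ENSDARG00000104773) and fosab (ENSDARG00000031683), 4 of the 30258 features in the zebrafish count table. They were found by gene symbol in the authors' own comparison tables, and all 4 had counts in each of 12 bulk RNA-Seq libraries of cells sorted by FACS from adult retina. LWS2 libraries came from RFP+ cones and LWS1 libraries from GFP+ cones of the lws:PAC(H) line, which carries a clone of the lws locus with GFP behind the lws1 promoter and dsRedExpress behind the lws2 promoter. The tdTomato+ libraries came from LWS cones and the tdTomato- libraries from the remaining sorted retinal cells of the thrb2:tdTomato line, in which the thyroid hormone receptor beta 2 promoter drives the reporter. Each group had 3 libraries, all labelled as wild-type. All fish were dark-adapted, were taken around the time the lights came on, and had their retinas dissociated with enzymes at warm temperature before sorting. How many fish went into a library, and whether replicates were separate sorts, is not given in the sources used here, so the tests measure the spread between these libraries, which may be technical. The cone subtypes carry different fluorescent reporters, and the LWS2 and LWS1 cones come from another line than the tdTomato sorts, so subtype, reporter and line cannot be told apart.

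AP-1 is a dimer of basic leucine zipper proteins in which a Jun family protein pairs with a Fos family protein or with another Jun. In vertebrate cells jun, the junB genes and fos are immediate early genes, whose transcription rises within minutes of a stimulus without new protein synthesis, and the messages are short-lived. Growth factors, calcium, light, injury and the dissociation of a tissue into single cells are known triggers. Jun N-terminal kinase (JNK) phosphorylates Jun, and Jun in turn activates its own promoter, while JunB is a weaker activator that can oppose Jun. In mammalian retina, Fos varies with light and time of day in photoreceptors and other neurons, and AP-1 genes are induced in Müller glia after damage.

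Total counts ranged from 459226 in tdTomato- replicate 1 to 3189337 in tdTomato- replicate 2, and LWS1 replicate 3 held 694158. Mitochondrially encoded genes took 12.9 to 13.8% of counts in LWS2 libraries, 18.9 to 29.7% in LWS1 libraries, 22.0 to 71.7% in tdTomato+ libraries and 53.4 to 54.3% in tdTomato- libraries. Levels are therefore given as TMM-normalized read counts scaled to 1000000 per library (CPM), which discount a few dominant genes. The TMM factors ran from 0.458 in tdTomato+ replicate 2 to 1.44 in LWS2 replicate 2. All tdTomato- samples are labelled as cone photoreceptors, but 9 cone marker features summed to 41569 to 70183 CPM over the other 9 libraries and to 11450 to 16438 CPM in the tdTomato- libraries. A list of 9 Müller glia marker features summed to 188 to 1428 CPM in the cone libraries and to 6006 to 10905 CPM in tdTomato- libraries. The tdTomato- samples are therefore called retinal cells here.

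In brief, jun was higher in LWS2 cones than in LWS1 cones and than in tdTomato+ cones, by more than 5-fold in each case, and its level in LWS2 cones lay near that of tdTomato- retinal cells. The other 3 genes passed the test between no pair of cone groups, and all cone libraries lay below all tdTomato- libraries for each of them. These 3 genes were found through the authors' table of tdTomato+ and tdTomato- cells, so this separation is a description. Taken singly, tdTomato+, LWS1 and LWS2 libraries lay wholly below tdTomato- libraries in 9.01%, 11.8% and 10.9% of all features tested. In bulk libraries such as these, fewer cells of a type that carries a message and less message per cell cannot be told apart.

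**Figure D1:**
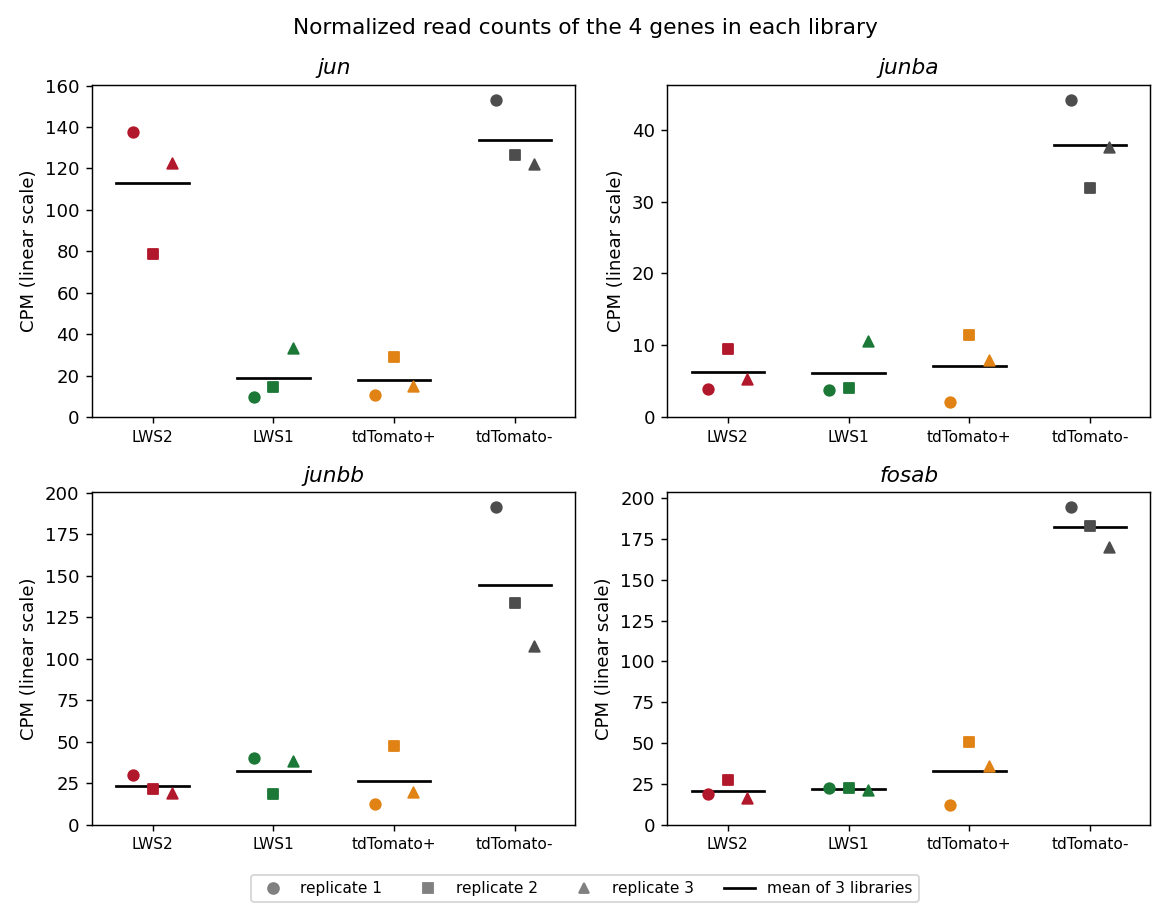
Normalized read counts (CPM, linear scale starting at 0, vertical axis) of jun, junba, junbb and fosab in LWS2, LWS1, tdTomato+ and tdTomato- libraries (horizontal axis); each symbol is 1 library and each line the mean of 3. The 3 LWS2 libraries sit between 78.7 and 137 CPM for jun, above all LWS1 and tdTomato+ libraries, while for the other 3 genes the cone groups overlap and tdTomato- libraries lie above every cone library. Those 3 genes were found through the authors' table of tdTomato+ and tdTomato- cells.

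For jun, which encodes the main Jun partner in AP-1, LWS2 replicates 1, 2 and 3 had 137, 78.7 and 123 CPM, against 9.54, 14.3 and 33.1 CPM in LWS1 replicates. The values were 10.4, 29.0 and 14.8 CPM in tdTomato+ replicates and 153, 126 and 122 CPM in tdTomato- replicates. The lowest LWS2 library was above the highest LWS1 and tdTomato+ libraries, as in 17.8% of all features tested against LWS1 and 10.9% of those tested against tdTomato+. The LWS2 libraries overlapped the tdTomato- libraries. The raw counts behind these levels were 341 to 533 in LWS2 libraries and 18 to 25 in LWS1 libraries, so the LWS1 values rest on few reads. They were 29 to 38 in tdTomato+ libraries and 52 to 321 in tdTomato- libraries. Group means of jun were 113 ± 30.5 CPM in LWS2, 19.0 ± 12.5 CPM in LWS1, 18.1 ± 9.71 CPM in tdTomato+ and 134 ± 16.8 CPM in tdTomato- (SD, n = 3 each).

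The question put to LWS2 and LWS1 cones is which transcripts distinguish the subtypes besides the opsins. A feature was called at an edgeR false discovery rate (FDR) under 0.05 and a fold change above 2, the cutoffs of the study. Of the 4 genes, 1 (jun) was called higher in LWS2 cones, where 1.2% of all 8432 features tested were. The log2 fold change of jun, LWS2 over LWS1, was 2.51 (SE 0.450, 95% interval 1.51 to 3.52, 5.71-fold, edgeR FDR = 0.0254), and jun ranked 79th by p-value among the features tested. The call was lost on leaving out any single library except LWS1 replicate 3 (edgeR FDR up to 0.181) and in a fit of all 4 groups (edgeR FDR = 0.0595), with log2 fold changes from 2.11 to 3.15 throughout. The authors' comparison tables stop at an adjusted p-value of 0.1, and jun is in the one for LWS1 and LWS2, so its call here is not independent of how the genes were found.

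LWS1 replicate 3, the LWS1 library with the most jun, also had the most opn1lw2, the opsin of LWS2 cones. The opn1lw2 level, summed over 2 features of that name, was 12397 to 15420 CPM in LWS2 libraries, 3536, 1330 and 7670 CPM in LWS1 replicates 1, 2 and 3, and 11588 to 13860 CPM in tdTomato+ libraries. LWS1 replicate 3 also had the most opn1lw1 of its group (20893 CPM, against 17419 and 18770 CPM in replicates 1 and 2). LWS1 replicates 1 and 2 had 18 jun reads each, so their order in jun (9.54 and 14.3 CPM) comes from library scaling alone. Without LWS1 replicate 3 the log2 fold change of jun was 3.15 (edgeR FDR = 0.0114). The tdTomato+ libraries, with opn1lw2 levels near those of LWS2 libraries, had jun levels in the range of LWS1 libraries. The part of LWS2 cones in the jun level of LWS1 or tdTomato+ libraries was not tested.

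The comparison of LWS2 and tdTomato+ cones sets 1 subtype against LWS cones as a whole. There, jun was the single gene of the 4 called higher, beside 0.708% of 9598 features. Its log2 fold change, LWS2 over tdTomato+, was 2.57 (SE 0.446, 95% interval 1.58 to 3.56, 5.95-fold, edgeR FDR = 0.0320). The call was lost on leaving out any single library except tdTomato+ replicate 1 (edgeR FDR 0.0550 to 0.254 over the other libraries), with log2 fold changes between 2.28 and 3.13. Between LWS1 and tdTomato+ cones, jun had a log2 fold change of 0.10 (SE 0.694, 95% interval -1.40 to 1.60, edgeR FDR = 0.995), a sign that turned in 3 of the 6 fits without 1 library. Of the 3 genes tested in LWS1 versus tdTomato+, 0 were called by edgeR, 0 had an unadjusted p under 0.05 and 0 were called by DESeq2, beside 0.0139% of 7214 features by edgeR. The interval of jun leaves changes of over 2-fold in either direction possible. The 2 comparisons with tdTomato+ use the same 3 tdTomato+ libraries. The LWS2 libraries are also those of the authors' LWS1 and LWS2 table that lists jun. The jun call in LWS2 versus tdTomato+ is therefore not independent of how the genes were found.

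junba and junbb are the paralogous zebrafish JunB genes. Reads of junba were few in the LWS1 libraries (5 to 8) and in tdTomato+ replicate 1 (6), near the counting floor of 3 reads, which corresponds to 0.691 CPM in the deepest cone library and 3.97 CPM in the shallowest. LWS2 replicates 1, 2 and 3 had 3.93, 9.46 and 5.30 CPM of junba, against 3.71, 3.98 and 10.6 CPM in LWS1 replicates. It had 2.16, 11.4 and 7.88 CPM in tdTomato+ replicates and 44.2, 31.9 and 37.7 CPM in tdTomato- replicates. All 9 cone libraries overlapped for junba, at 5 to 41 reads each, and lay below every tdTomato- library. Between LWS2 and LWS1 its log2 fold change was -0.003 with an SE of 0.834 (95% interval -1.87 to 1.86, edgeR FDR = 0.9996), an interval that spans more than 3-fold in each direction. junba did not pass the filter on low counts in LWS1 versus tdTomato+, so it was not tested there.

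junbb had 29.7, 21.7 and 18.9 CPM in LWS2 replicates 1, 2 and 3, against 40.3, 18.3 and 38.4 CPM in LWS1 replicates. It had 12.6, 47.3 and 19.7 CPM in tdTomato+ replicates and 191, 134 and 108 CPM in tdTomato- replicates. The cone groups overlapped, and the tdTomato- libraries again lay above all of them. The log2 fold change of junbb was -0.61 in LWS2 over LWS1 (SE 0.393, 95% interval -1.48 to 0.27, edgeR FDR = 0.524). It was 0.32 in LWS1 over tdTomato+ (SE 0.611, edgeR FDR = 0.981) and -0.27 in LWS2 over tdTomato+ (SE 0.519, edgeR FDR = 0.923).

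fosab is a zebrafish ortholog of FOS, and its product needs a Jun partner to bind DNA. It had 19.0, 27.2 and 16.1 CPM in LWS2 replicates 1, 2 and 3, against 22.3, 22.3 and 21.2 CPM in LWS1 replicates. The values were 11.9, 50.4 and 35.9 CPM in tdTomato+ replicates and 194, 183 and 170 CPM in tdTomato- replicates. The LWS1 libraries were closest to each other (21.9 ± 0.619 CPM, SD, n = 3) and the tdTomato+ libraries furthest apart (32.7 ± 19.4 CPM). The LWS1 values rest on 42, 28 and 16 reads, too few for that closeness to show a small spread. The log2 fold change of fosab was -0.22 in LWS2 over LWS1 (SE 0.374, 95% interval -1.05 to 0.62, edgeR FDR = 0.839), so the interval leaves out an increase as large as that of jun. It was -0.55 in LWS1 over tdTomato+ (SE 0.602, edgeR FDR = 0.967) and -0.74 in LWS2 over tdTomato+ (SE 0.529, edgeR FDR = 0.696).

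Within tdTomato+, the same libraries were high and low for all 4 genes under TMM scaling. Replicate 2, in which 71.7% of counts were mitochondrial, had the highest CPM of the group for all 4 genes, while replicate 1, with 22.0% mitochondrial counts, had the lowest for all 4. Scaled by raw totals without the TMM factor, jun was at 10.4, 13.3 and 14.8 CPM in tdTomato+ replicates 1, 2 and 3, so replicate 3 rather than replicate 2 was highest, and the same held for junba (7.87 against 5.24 CPM in replicate 2) and fosab (35.9 against 23.1 CPM). Against library totals alone, the log2 fold changes of junba, junbb and fosab in LWS2 over tdTomato+ turned to 0.81, 0.86 and 0.31, none of them called, whereas that of jun was 3.61 (edgeR FDR = 0.000393).

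**Figure D2:**
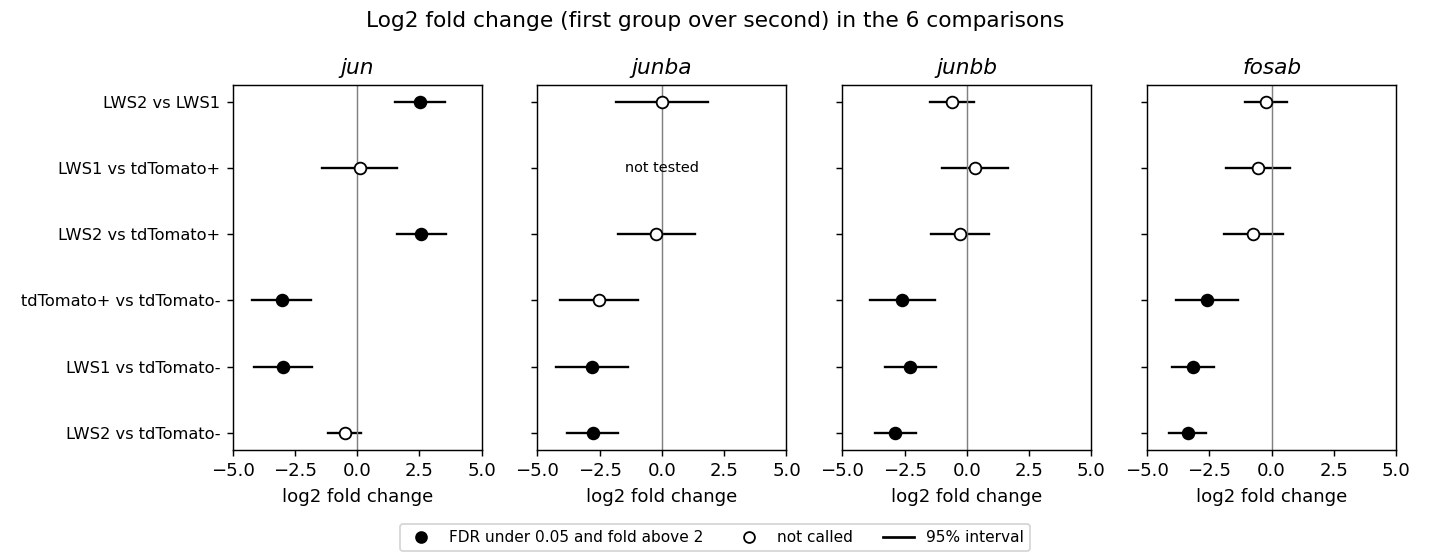
Log2 fold change (horizontal axis, first named group over second) of jun, junba, junbb and fosab in the 6 pairwise comparisons (vertical axis), with 95% intervals from edgeR; filled circles passed an FDR under 0.05 and a fold change above 2, and junba was not tested in LWS1 vs tdTomato+. The filled circles right of 0 are jun in LWS2 vs LWS1 (2.51) and in LWS2 vs tdTomato+ (2.57), and those left of 0 are all in comparisons with tdTomato- cells.

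Against the tdTomato- retinal cells of the same line, 3 of the 4 genes were called lower in tdTomato+ cones, beside 1.99% of 8236 features. The log2 fold change, tdTomato+ over tdTomato-, was -3.03 for jun (SE 0.550, 95% interval -4.23 to -1.84, edgeR FDR = 0.0237). It was -2.59 for fosab (SE 0.576, edgeR FDR = 0.0412) and -2.59 for junbb (SE 0.602, edgeR FDR = 0.0491). junba, at -2.53 (SE 0.715, edgeR FDR = 0.0990), was not called, although its tdTomato+ libraries all lay below its tdTomato- libraries, as in 9.01% of the features. It was called with DESeq2 (adjusted p = 0.0184), without the filter on low counts (edgeR FDR = 0.0381) and in a fit of all 4 groups (edgeR FDR = 0.0410). The junbb and fosab calls were each lost on leaving out any 1 of the 6 libraries, with log2 fold changes of -3.31 to -2.18 for junbb and -3.04 to -2.13 for fosab. The jun call remained without tdTomato+ replicate 2 or tdTomato- replicate 1 and was lost without any of the other 4 (edgeR FDR up to 0.109). All 4 genes are listed in the authors' table of this comparison, which selected them, so the counts are a description.

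LWS1 cones, set against the same tdTomato- libraries, were lower for 4 of the 4 genes, beside 4.7% of 6361 features. The groups did not overlap for any of the 4, as in 11.8% of features. The authors' table that lists all 4 genes used the same tdTomato- libraries, so these counts are a description. The largest change was that of fosab, whose mean was 21.9 CPM in LWS1 cones and 182 CPM in tdTomato- cells (log2 fold change -3.16, SE 0.382, edgeR FDR = 0.00189, rank 10 by p-value). jun had -2.97 (SE 0.529, edgeR FDR = 0.00704), junba -2.80 (SE 0.663, edgeR FDR = 0.0257) and junbb -2.27 (SE 0.470, edgeR FDR = 0.0133). fosab kept its call without any 1 library, whereas junba was not called in 4 of these 6 fits and junbb in 3. jun was not called without LWS1 replicate 1 (edgeR FDR = 0.0595), and without that library fosab alone of the 4 was called. With library totals in place of TMM, the calls of junba (edgeR FDR = 0.0607) and junbb (edgeR FDR = 0.0517) were lost.

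LWS2 cones were lower than tdTomato- cells for 3 of the 4 genes, beside 8% of 9604 features. For these 3 genes the groups did not overlap, as in 10.9% of features. All 3 were found through the authors' table that used the same tdTomato- libraries, so these counts are a description. Mean fosab was 20.8 CPM in LWS2 cones and 182 CPM in tdTomato- cells (log2 fold change -3.37, SE 0.335, edgeR FDR = 0.000810, rank 16 by p-value). The values were -2.87 for junbb (SE 0.367, edgeR FDR = 0.00142) and -2.78 for junba (SE 0.465, edgeR FDR = 0.00413). fosab and junbb were called in all 6 fits without 1 library, and junba in 5 of them. jun was the exception, at -0.50 (SE 0.303, 95% interval -1.18 to 0.17, edgeR FDR = 0.335), and it turned to 0.57 when library totals replaced TMM (edgeR FDR = 0.146). The interval under TMM reaches from about the level of tdTomato- cells to less than 3-fold below it, which is short of the difference seen in LWS1 and tdTomato+ cones.

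The proportion of jun among the 4 genes does not depend on how libraries are scaled. In LWS2 replicates 1, 2 and 3, jun made up 72.3% (Wilson 95% interval 68.4 to 76.0), 57.4% (53.4 to 61.3) and 75.3% (72.0 to 78.3) of their summed counts. In LWS1 replicates the share was 12.6% (8.11 to 19.0), 24.3% (16.0 to 35.2) and 32.1% (22.7 to 43.0). The intervals cover counting error only, since PCR copies of a molecule were not told apart, and no LWS2 interval met an LWS1 interval.

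Shares of jun averaged 68.3 ± 9.58% in LWS2, 23.0 ± 9.80% in LWS1, 22.7 ± 4.87% in tdTomato+ and 26.9 ± 0.874% in tdTomato- libraries (SD, n = 3 each). The difference in mean share was -3.95 percentage points for LWS1 minus tdTomato- and -4.26 points for tdTomato+ minus tdTomato-, with libraries that overlapped in both cases (two-sided exact permutation p = 0.7 and 0.4). LWS2 exceeded each other group in 3 of 3 libraries, by 45.3 percentage points over LWS1, 45.7 over tdTomato+ and 41.4 over tdTomato-. The two-sided exact permutation p was 0.1 in each of these comparisons, the smallest that 3 libraries against 3 can give (0.267 after Benjamini-Hochberg adjustment over 24 such tests, 4 genes in 6 comparisons). Leaving out 1 library gave differences of 40.1 to 50.8 points for LWS2 minus LWS1. As a ratio, there were 2.19 jun reads for each read of the other 3 genes summed over LWS2 libraries, against 0.261 in LWS1, 0.280 in tdTomato+ and 0.371 in tdTomato- libraries. Such ratios of reads also depend on transcript lengths, which cancel between libraries. Of the 4 genes, jun alone is listed in the authors' table of LWS1 and LWS2, which used these LWS2 libraries. Its share in them is therefore not independent of how the genes were found.

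**Figure D3:**
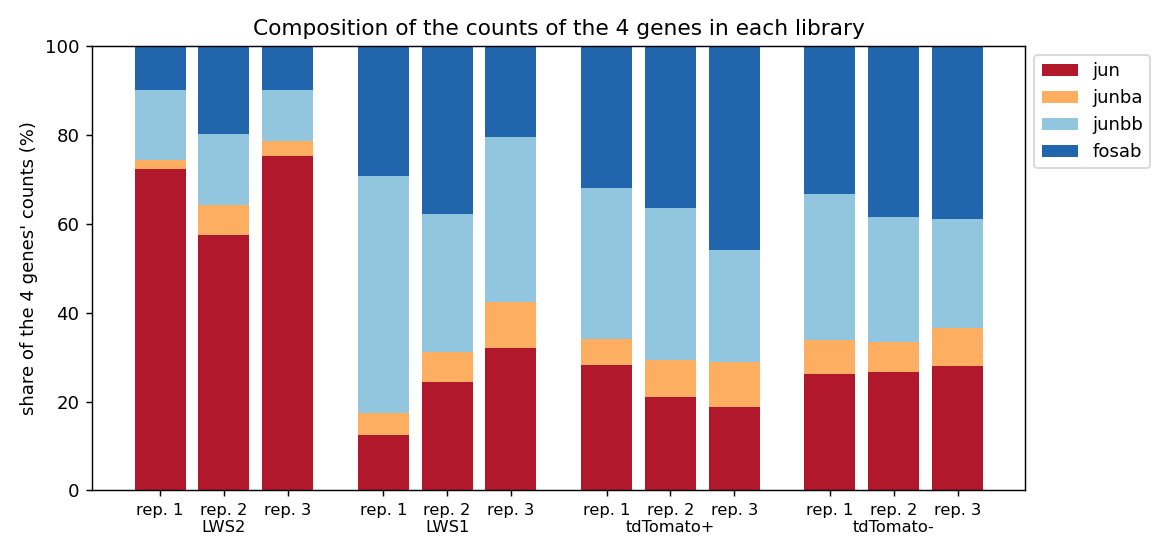
Share (percent, vertical axis, from 0 to 100) that jun, junba, junbb and fosab each took of the summed raw counts of the 4 genes, with 1 stacked bar for each LWS2, LWS1, tdTomato+ and tdTomato- library. jun fills 57.4 to 75.3% of the LWS2 bars and 12.6 to 32.1% of all other bars.

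junbb took 11.6 to 15.8% of the 4 genes' counts in LWS2 libraries and 31.1 to 53.1% in LWS1 libraries, and fosab took 9.89 to 19.9% in LWS2 libraries and 20.5 to 37.8% in LWS1 libraries. The junba share overlapped, at 2.07 to 6.90% in LWS2 libraries and 4.90 to 10.3% in LWS1 libraries (two-sided exact permutation p = 0.3). Since the shares of the 4 genes add up to the whole, a higher share of jun lowers the others together. The lower shares of junbb and fosab in LWS2 libraries are therefore no result separate from that of jun. In their own levels, those 3 genes passed the test in no comparison of the cone groups, as given above. As part of all counts that were not mitochondrial, the 4 genes together took 0.0229 to 0.0291% in LWS2 libraries, 0.00942 to 0.0156% in LWS1 libraries, 0.00474 to 0.0223% in tdTomato+ libraries and 0.0811 to 0.0936% in tdTomato- libraries.

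Across the 12 libraries, junba, junbb and fosab varied together. Pearson's r of log2(CPM + 1) was 0.95 for junba and fosab, 0.92 for junbb and fosab, and 0.90 for junba and junbb. For jun it was 0.63 with junba, 0.57 with junbb and 0.54 with fosab. These coefficients describe 12 libraries in 4 groups that also differ in line and depth, and the contrast of tdTomato- cells with cones enters all of them. All 4 genes are listed in the authors' table of tdTomato+ and tdTomato- cells, and jun also in that of LWS1 and LWS2. The coefficients, and the nearest profiles given below, are therefore not independent of how the genes were found. The same measure was used to find, among 5658 named features with a mean of at least 10 CPM, the profiles most like each gene.

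The 5 profiles most like that of jun were eef1a1l1 (r = 0.90), RPL5 (0.85), ZNF410 (0.83), fhod1 (0.82) and ppiaa (0.82). They encode a translation elongation factor, a ribosomal protein, a zinc finger protein, a formin and a cyclophilin. Mean eef1a1l1 was 1078 CPM in LWS2, 516 CPM in LWS1, 513 CPM in tdTomato+ and 1004 CPM in tdTomato- libraries, so that the same pair of groups was high as for jun, over a narrower range. Mean fhod1 was 19.0 CPM in LWS2, 0.706 CPM in LWS1, 3.65 CPM in tdTomato+ and 17.7 CPM in tdTomato- libraries.

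The profiles most like the other genes were shared among them. ddit4, an inhibitor of mTORC1 signalling, was among the 5 nearest to junba (r = 0.97), junbb (0.91) and fosab (0.97), with a mean of 5.18 CPM in LWS2, 6.45 CPM in LWS1, 9.63 CPM in tdTomato+ and 117 CPM in tdTomato- libraries. The lists also held vill and bmp1b for junba (0.96 and 0.95) and fosab (0.96 and 0.97), cdo1 for junbb (0.91) and fosab (0.96), and si:ch211-152c2.3 for fosab (0.98) and junbb (0.92). si:ch211-214p13.3 and mlc1 completed the list of junba (0.95 each), and EPB41L5 (0.94) and fkbp1aa (0.91) that of junbb. mlc1, known as an astrocyte and Müller glia membrane protein in mammals, had a mean of 7.30 CPM in LWS2, 4.15 CPM in LWS1, 5.00 CPM in tdTomato+ and 120 CPM in tdTomato- libraries.

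A list of other AP-1 and related leucine zipper genes (further fos, jun, jdp2, atf3, batf and small maf genes) was matched to 17 features, of which 3 to 5 passed the filter on low counts in a comparison. fosaa, JDP2 and batf3 had 0 reads in every LWS2, LWS1 and tdTomato+ library. Of 4 tested between LWS2 and LWS1 cones, 0 were called and 0 had an unadjusted edgeR p under 0.05, and their log2 fold changes ran from -1.20 to 1.05. DESeq2 called 1 of 9 lower, mafk (-5.53, adjusted p = 0.0183), beside 176 of all features called lower. The share of all features called was not worked out for DESeq2, so its counts do not show whether a list stands out. The gene mafk is named after its value was seen and had most of its LWS1 reads in 1 library. The lowest of the 4 tested by edgeR was jund, whose product is the constitutive Jun protein, at 3.93, 8.08 and 9.90 CPM in LWS2 replicates and 5.83, 29.4 and 10.6 CPM in LWS1 replicates (edgeR FDR = 0.449). In LWS2 versus tdTomato- cells jund was called lower (log2 fold change -2.22, SE 0.485, edgeR FDR = 0.0144), a call that was lost with library totals (edgeR FDR = 0.0795), in a fit of all 4 groups (0.0762) and without LWS2 replicate 1, LWS2 replicate 3 or tdTomato- replicate 3. Against tdTomato- cells DESeq2 also called jdp2b lower in tdTomato+ cones (-4.04, adjusted p = 0.00117) and in LWS2 cones (-3.46, adjusted p = 0.00375). All features called lower by DESeq2 there numbered 428 and 1119. edgeR did not call jdp2b (FDR = 0.0598 and 0.0599), and its tdTomato- replicates had 103, 13.4 and 12.4 CPM.

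atf3, a stress-induced gene whose product can pair with Jun, was called higher in LWS2 cones than in tdTomato- cells, as 4.51% of features were. It had 38.3, 11.5 and 46.1 CPM in LWS2 replicates, against 0, 3.54 and 3.23 CPM in tdTomato- replicates (log2 fold change 3.18, SE 0.676, edgeR FDR = 0.0127). The tdTomato- values rest on 0, 9 and 6 reads, and atf3 passed the filter on low counts only in comparisons with LWS2, where it is high, so the size of this change is poorly known. LWS1 replicates had 4.24, 30.2 and 6.62 CPM and tdTomato+ replicates 1.44, 6.87 and 2.46 CPM. All LWS2 libraries were above all tdTomato+ libraries, as in 10.9% of all features tested there. The log2 fold change was 3.15 (edgeR FDR = 0.0906), not called by edgeR but called by DESeq2 (adjusted p = 0.00138). LWS2 and LWS1 overlapped for atf3 through LWS1 replicate 2 (log2 fold change 1.05, SE 0.735, edgeR FDR = 0.559). Its call against tdTomato- cells was lost without LWS2 replicate 3, tdTomato- replicate 2 or tdTomato- replicate 3 (edgeR FDR up to 0.0713).

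**Figure D4:**
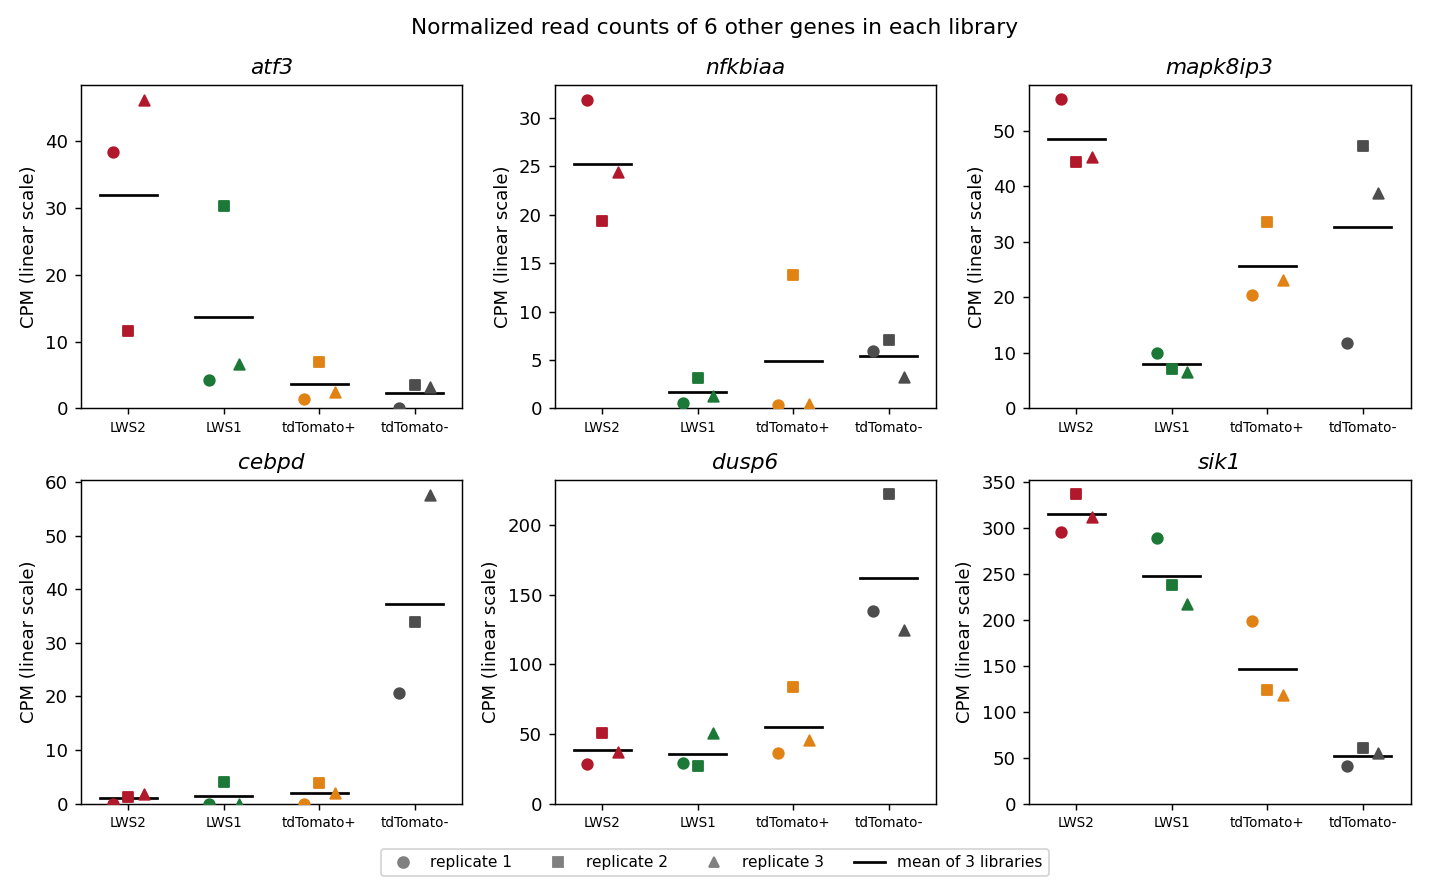
Normalized read counts (CPM, linear scale starting at 0, vertical axis) of atf3, nfkbiaa, mapk8ip3, cebpd, dusp6 and sik1 in LWS2, LWS1, tdTomato+ and tdTomato- libraries (horizontal axis); each symbol is 1 library and each line the mean of 3. nfkbiaa (19.4 to 31.8 CPM) and mapk8ip3 (44.3 to 55.8 CPM) in LWS2 lie above all LWS1 libraries, as in 17.8% of all features tested. cebpd and dusp6 are highest in tdTomato- libraries, and sik1 is lowest there.

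Other immediate early genes (egr, nr4a, ier, dusp, klf, zfp36 and further families) were matched for 54 of 59 symbols. Of 31 tested between LWS2 and LWS1 cones, 1 was called higher and 0 lower, beside 1.2% of all features called higher, and 7 had an unadjusted edgeR p under 0.05, as did 14.6% of all features. The called gene was nfkbiaa, which encodes an inhibitor of NF-kB and is itself an NF-kB target. It had 31.8, 19.4 and 24.4 CPM in LWS2 replicates, against 0.530, 3.18 and 1.32 CPM in LWS1 replicates (log2 fold change 3.79, SE 0.659, edgeR FDR = 0.0216, and 0.236 in a fit of all 4 groups). The groups did not overlap, as in 17.8% of all features tested, with LWS2 higher. The LWS1 values rest on 1, 4 and 1 reads, and nfkbiaa was not tested in either other comparison of LWS1. It therefore passed the filter on low counts through LWS2, and the size of its change is poorly known. The call was lost without any 1 of the LWS2 libraries (edgeR FDR up to 0.161). DESeq2 called 2 of 36 higher and 1 lower, beside 177 and 176 of all features, numbers that are given without a share. The median log2 fold change of the list was 0.07, beside -0.02 over all features tested. In LWS1 versus tdTomato+ and LWS2 versus tdTomato+, 0 of 23 and 0 of 31 were called by edgeR (0.844% of all features in the second of these). An unadjusted edgeR p under 0.05 was found for 5 and 7 (5.38% and 10.03% of all features). DESeq2 called 0 of 27 and 1 of 36 (ier2b, lower, -1.16, adjusted p = 0.0242), beside 96 of all features called lower in the second.

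Against tdTomato- cells, most of the called genes on this list were lower in cones, as were most of all features called under TMM (164 lower and 12 higher in tdTomato+, 299 and 152 in LWS1, 768 and 433 in LWS2 cones). With library totals, 74.4% and 86.9% of the features called in LWS1 and LWS2 cones were higher instead. In tdTomato+ cones 3 of 33 were called, all 3 lower, beside 1.99% of all features. They were cebpd (log2 fold change -4.51), cebpb (-3.47), both leucine zipper factors of the acute response, and dusp2 (-2.94), a MAP kinase phosphatase. Each of these 3 calls was lost in 5 of the 6 fits without 1 library (edgeR FDR up to 0.144 for cebpd, 0.205 for cebpb and 0.258 for dusp2). Those of cebpb and dusp2 were also lost in 2 other alternatives each, and cebpd had 0 to 5 reads in a tdTomato+ library. DESeq2 called 8 of 41, all lower, beside 428 of all features called lower by DESeq2. Without a share for all features, this count does not show whether the list stands out. In LWS1 cones 7 of 30 were lower and 1 was higher, beside 4.7% of all features lower and 2.39% higher. The 5 with the smallest p were sik1 (2.14), dusp6 (-2.29), zfp36l1b (-2.71), cebpd (-4.84) and klf6a (-2.80). klf6a lost its call in 5 of the 6 fits without 1 library and in 3 other alternatives, cebpd in 3 of the 6 with a log2 fold change of -8.91 to -4.09, zfp36l1b in 2, and sik1 and dusp6 in 1 each.

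In LWS2 cones 10 of 34 were lower than in tdTomato- cells and 2 were higher, beside 8% and 4.51% of all features. An unadjusted edgeR p under 0.05 was found for 18, and for 26.2% of all features. The 5 with the smallest p were zfp36l1b (log2 fold change -3.10), which encodes a protein that destabilizes AU-rich messages, sik1 (2.34), cebpd (-5.33), the growth inhibitor btg2 (-2.28) and dusp6 (-2.29), an ERK phosphatase. These 5 were called in all 6 fits without 1 library. dusp6 had 28.3, 50.8 and 37.3 CPM in LWS2 replicates, against 138, 223 and 125 CPM in tdTomato- replicates. sik1, a kinase gene induced through CREB, went the other way, with 295, 337 and 312 CPM in LWS2 replicates, against 41.2, 59.9 and 55.4 CPM in tdTomato- replicates (log2 fold change 2.34, SE 0.269, edgeR FDR = 0.00111). nfkbiaa was the other gene called higher (2.02, SE 0.481, edgeR FDR = 0.0212), and lost the call in 4 of the 6 fits without 1 library (edgeR FDR up to 0.110). Median log2 fold changes of the list were -0.21 in tdTomato+, -0.66 in LWS1 and -0.56 in LWS2 over tdTomato-, beside 0.11, 0.05 and -0.01 over all features tested.

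Genes upstream of AP-1, the MAP kinases, their activators and scaffolds and the serum response and CREB factors, were matched for 49 of 50 symbols. Of 19 tested between LWS2 and LWS1 cones 1 was called higher and 0 lower, beside 1.2% of all features called higher. This gene was mapk8ip3, whose product is a scaffold that binds JNK and a cargo adaptor for kinesin. It had 55.8, 44.3 and 45.4 CPM in LWS2 replicates, against 10.1, 7.16 and 6.62 CPM in LWS1 replicates (log2 fold change 2.43, SE 0.353, edgeR FDR = 0.0109). Its tdTomato+ replicates had 20.5, 33.6 and 23.1 CPM, between both subtypes, and its tdTomato- replicates 11.8, 47.3 and 38.7 CPM. The call in LWS2 versus LWS1 was lost without any 1 of the LWS2 libraries (edgeR FDR up to 0.107) and in a fit of all 4 groups (0.0586). The median log2 fold change of the list was -0.34 in LWS2 over LWS1, beside -0.02 over all features tested. In the other 5 comparisons the single edgeR call was map2k6, an activator of p38 kinases. It was the 1 of 21 called lower in LWS2 cones than in tdTomato- cells (log2 fold change -2.37, SE 0.662, edgeR FDR = 0.0429), beside 8% of all features. The call was lost in 4 of the 6 fits without 1 library (edgeR FDR up to 0.188) and in 2 other alternatives. DESeq2 also called mapk8ip3 lower in LWS1 cones than in tdTomato- cells (-2.08, adjusted p = 0.0381).

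Heat shock genes, which respond to protein damage, were matched for 24 of 27 symbols. Of 20 tested between LWS2 and LWS1 cones 0 were called by edgeR and 0 of 23 by DESeq2. An unadjusted edgeR p under 0.05 was found for 4, all of them higher in LWS2 cones, and for 14.6% of all features. The median log2 fold change of the list was 0.14, with 13 above 0 and 7 below. Its summed level was 3863 to 5005 CPM in LWS2 libraries and 3220 to 5279 CPM in LWS1 libraries. Against tdTomato- cells, the small heat shock gene hspb1 was lower in LWS1 cones (log2 fold change -2.79, edgeR FDR = 0.00825) and in LWS2 cones (-3.09, edgeR FDR = 0.00127). HSPA4 (1.67, edgeR FDR = 0.0153) and hsf2 (1.52, edgeR FDR = 0.0104) were higher in LWS2 cones. Another feature with the name HSPA4 was not called there. These calls were 1 of 18 lower in LWS1 cones, beside 4.7% of all features. In LWS2 cones they were 2 of 21 higher and 1 lower, beside 4.51% and 8%. The calls of HSPA4, of hsf2 and of hspb1 in LWS1 were each lost in 3 of the 6 fits without 1 library (edgeR FDR up to 0.0770, 0.0693 and 0.0589), and that of hsf2 also in 1 other alternative (0.185). In tdTomato+ cones edgeR called 0 of 20 and DESeq2 1 of 22 (hspb1, lower, -2.86, adjusted p = 0.0346), beside 428 of all features called lower by DESeq2. DESeq2 called 2 of 21 lower in LWS1 cones, beside 523 of all features. In LWS2 cones it called 5 of 23 higher and 1 lower, beside 543 and 1119. These numbers of all features are given without a share, so they do not show whether heat shock genes stand out.

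Proteasome subunit genes, a list added after the data were seen, were high in the same cone group as jun. The study itself reports many proteasome transcripts enriched in these LWS2 libraries, and jun is listed in its table of LWS1 and LWS2. That both were high in LWS2 cones is therefore a description. Their 49 features summed to 4826 to 5672 CPM in LWS2 libraries, 1378 to 1896 CPM in LWS1 libraries, 1180 to 2424 CPM in tdTomato+ libraries and 1440 to 2067 CPM in tdTomato- libraries. In LWS2 versus LWS1, 22 of 43 tested were called higher, in LWS2 versus tdTomato+ 12 of 43, and in LWS2 versus tdTomato- 31 of 43, beside 1.2%, 0.708% and 4.51% of all features. The order differed from that of jun in tdTomato- cells, where jun was high and the proteasome sum was not. The part of this shift in the jun level of LWS2 libraries was not tested.

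The higher levels of the 4 genes in tdTomato- cells stood beside higher levels of some markers of other cell types. Beside the Müller glia list, 9 rod marker features summed to 1804 to 4532 CPM over LWS2 and LWS1 libraries and 4707 to 12261 CPM in tdTomato+ libraries, against 13407 to 36152 CPM in tdTomato- libraries. A list of 7 microglia marker features summed to 10.3 to 193 CPM over the cone libraries and to 89.3 to 280 CPM in tdTomato- libraries, so these ranges overlapped. Against tdTomato- cells, 3 of 4 tested microglia features were called lower in LWS2 cones, beside 8% of all features. The calls were 0 of 3 in LWS1 cones and 0 of 4 in tdTomato+ cones. The Müller glia gene SLC1A3 was at 0 in all 12 libraries. The list of 6 other cone opsin features summed to 4909 to 5238 CPM in LWS2, 2542 to 4531 CPM in LWS1 and 5771 to 17343 CPM in tdTomato+ libraries, against 14053 to 30429 CPM in tdTomato- libraries. The amacrine sum went the other way (207 to 344 CPM in tdTomato+ and 58.9 to 179 CPM in tdTomato- libraries). Of its 6 tested features, 3 were higher and 3 lower in tdTomato+ cones. LWS2 (116 to 222 CPM) and LWS1 libraries (95.9 to 234 CPM) overlapped tdTomato- libraries in this sum. The RPE sum was not higher in tdTomato- libraries (44.8 to 178 CPM in tdTomato+ and 14.7 to 63.8 CPM in tdTomato-). Bipolar sums overlapped (7.92 to 185 CPM in tdTomato+ and 26.5 to 288 CPM in tdTomato-). Ganglion cell sums did as well (4.68 to 49.6 CPM in tdTomato+ and 44.2 to 156 CPM in tdTomato-), but those of LWS2 (23.6 to 36.9 CPM) lay below. In LWS2 versus tdTomato-, 2 of 4 bipolar and 2 of 3 ganglion cell features were called lower (8% of all features), 1 ganglion cell feature higher (4.51%). In LWS2 libraries, where jun was near its tdTomato- level, the Müller glia sum was 478 to 1117 CPM, against 661 to 1428 CPM in LWS1 libraries, the rod sum was 1804 to 3111 CPM, against 2265 to 4532 CPM, and the microglia sum was 39.3 to 116 CPM, against 44.0 to 193 CPM. None of these 3 sums was above the LWS1 range in an LWS2 library, whereas the sum of the other cone opsins was above it in all 3. The 6 opsin features in that sum did not move together. In LWS2 over LWS1, 3 had a positive and 3 a negative log2 fold change (-0.70 to 2.80, median -0.03), and 0 were called. The part of each cell type, other cones included, in the levels of the 4 genes was not tested.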

How the data were processed

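Reads were trimmed (Trimmomatic), mapped to GRCz11 by both STAR and Salmon and summarized per Ensembl feature through tximport, and the authors deposited the raw, whole-number counts. The labels list Trimmomatic 0.36, FastQC 0.11.5 and Salmon 0.13.1. Which aligner the deposited counts come from, and whether strand was used, is not given in the sources used here, so reads shared between paralogs or overlapping genes cannot be resolved. The 2 deposited comparison tables hold log2 fold changes and p-values of the authors' DESeq2 fits for genes with an adjusted p-value under 0.1. Gene symbols alone were taken from them, and their 12 per-sample columns were left unused. No sequences or coordinates are given, and CPM levels were not compared between genes, since no transcript lengths were used. Shares and ratios of the 4 genes' reads were compared between libraries only.

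Each pair of groups was compared by the edgeR quasi-likelihood test after filterByExpr and TMM scaling, with Benjamini-Hochberg adjustment over all features tested (R 4.3.3, edgeR 4.0.16, limma 3.58.1). Calls needed an FDR under 0.05 and a fold change above 2. Standard errors are the log2 fold change divided by the square root of the F statistic, and intervals use its degrees of freedom. The study used DESeq2, which was an alternative here (1.42.0). Its calls over all features are given as numbers, without the share of features tested. CPM values share 1 TMM scaling over 12 libraries. Single values per library were compared with two-sided exact permutation tests. No libraries were merged, since chi-square per degree of freedom between replicates was 6.24 to 169. The pipeline was also run on simulated counts with a common dispersion for all features. These lacked the differences in mitochondrial share between the libraries, so that run does not show how the tests perform on the real counts.

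The 4 genes and the gene lists were chosen with earlier results of these data known. The text names the 4 genes, every called gene of a list where 5 or fewer were called in a comparison and otherwise the 5 with the smallest p, and the 5 nearest profiles of each gene. Genes of the lists were matched to the comparison tables' symbols or to a reference name table, which names 23598 features, some in capitals or without a paralog letter. This matching was set after the name table was seen, and names in capitals may stand for either paralog. Alternatives covered DESeq2, RLE factors, library totals, no filter, a fit of all 4 groups together, blocking on the replicate number, omission of mitochondrial genes, and each library left out. Proteasome genes and opsin levels were added after the data were seen. Figures were drawn with matplotlib.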

Additional observations from a re-analysis of the deposited data

How the results depend on the processing

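The number of the 4 genes called rests on few libraries. Leaving out 1 library gave 0 to 1 called in LWS2 vs LWS1 and in LWS2 vs tdTomato+ (1 with all libraries in each), 0 to 1 in tdTomato+ vs tdTomato- (3), 1 to 4 in LWS1 vs tdTomato- (4) and 2 to 3 in LWS2 vs tdTomato- (3). A fit of all 4 groups gave 0 in LWS2 vs LWS1, and library totals in place of TMM gave 2 in LWS1 vs tdTomato- (jun and fosab). The cause was not tested, beyond the smaller number of libraries in a fit that leaves 1 out. Of 299 values of single genes under 13 alternatives per comparison, 238 kept their direction and their side of the cutoff, 40 lost and 3 gained a call, and 18 changed sign, none of them a called value. Of 416 values for the 32 calls of genes on the lists, 304 kept the call, 112 lost it and 0 changed sign.

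With library totals, the median log2 fold change of all features moved by 0.37 in LWS2 vs LWS1, by 0.81 when LWS2 was set against tdTomato+ and 1.00 against tdTomato-, by 0.45 when LWS1 was set against tdTomato+ and 0.64 against tdTomato-, and by 0.18 in tdTomato+ vs tdTomato-. This scaling turned log2 fold changes to 0.41 for junba and 0.16 for fosab in LWS2 vs LWS1, 0.15 for fosab in LWS1 vs tdTomato+, 0.81, 0.86 and 0.31 for junba, junbb and fosab in LWS2 vs tdTomato+, and 0.57 for jun in LWS2 vs tdTomato-. Without the filter, junba turned to 0.075 in LWS2 vs LWS1. Leaving out 1 library moved junba from -0.48 to 0.61 in LWS2 vs LWS1 and from -0.71 to 0.32 in LWS2 vs tdTomato+, junbb from -0.62 to 0.50 in LWS2 vs tdTomato+, and jun from -0.59 to 0.68 in LWS1 vs tdTomato+, where junbb ranged from -0.076 to 1.09.

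The numbers of all features called moved far more. Over the alternatives, 1 to 267 were higher and 0 to 411 lower in LWS2 vs LWS1 (101 and 51 as reported), 85 to 3063 and 286 to 1449 in LWS2 vs tdTomato- (433 and 768), and 18 to 555 and 37 to 607 in LWS1 vs tdTomato- (152 and 299). They were 0 to 242 and 0 to 329 in LWS2 vs tdTomato+ (68 and 13), 0 to 90 and 0 to 527 in tdTomato+ vs tdTomato- (12 and 164), and 0 to 78 and 0 to 30 in LWS1 vs tdTomato+ (1 and 0). Higher features were 66.4% of those called in LWS2 vs LWS1, 91.5% with library totals and 50.1% with DESeq2. The share was 33.7% in LWS1 vs tdTomato- and 36.1% in LWS2 vs tdTomato-, against 74.4% and 86.9% with library totals, and 84.0% in LWS2 vs tdTomato+, against 98.9% with library totals and 58.6% with DESeq2.

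Whether replicate numbers pair the libraries was not settled. In none of the 6 comparisons did all 3 same-numbered pairs correlate above 0.1. However, 2 of the 3 did in LWS2 vs LWS1 and in LWS2 vs tdTomato+, and 0 did in each remaining comparison. The mean correlation of same-numbered pairs was 0.14 in LWS2 vs LWS1, against -0.0704 for other pairs. It was 0.134 in LWS2 vs tdTomato+, against -0.0659. With the replicate block, 1 of the 4 genes was called in tdTomato+ vs tdTomato- (jun), where junbb had an edgeR FDR of 0.0687 and fosab of 0.0529, and the block changed no other count of the 4 genes. Depth limits junba most, with 5 to 8 reads in LWS1 libraries.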
